A study of Homo sapiens with 4 samples.

Results

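The amino acid transporter genes studied here are those whose current symbol begins SLC1A, SLC3A, SLC6A, SLC7A, SLC36A, SLC38A or SLC43A. The array carried 88 probes for 63 such genes of these 7 families, out of 47322 probes and 20045 named genes in all. They were read in K562, a human leukemia line with erythroid features, as a stable line with a short hairpin RNA against KLF3 (KLF3 knockdown, 2 arrays) and a stable line with a control hairpin (control, 2 arrays). KLF3 is a repressor of the Krüppel-like factor family that binds CACCC-type sequences, and the comparison asks which transcripts differ when it is depleted. All cells came from ATCC and grew in RPMI medium with serum, and the second array of each group is labelled a repeat. No label says whether a repeat was a culture of its own, so the p-values reflect array-to-array spread that may be technical, in 1 line for each hairpin.

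Amino acid transporters of the plasma membrane set how much of each amino acid a cell can draw from its medium. SLC3 proteins are heavy chains that carry certain SLC7 light chains to the surface, where these exchange one amino acid for another. SLC1 and SLC38 proteins couple uptake to sodium, and the SLC6 family includes carriers of neurotransmitters, glycine and osmolytes. SLC36 proteins couple amino acids to protons, and SLC43 proteins act as facilitators. In red cell precursors, glycine taken up through SLC6A9 is a substrate of heme synthesis, and glutamine and branched amino acids feed growth through the mTORC1 kinase.

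Signals are given as background-corrected, quantile-normalized log2 intensities with an offset of 16, so that differences of dim genes are understated. A probe counted as detected at a detection p under 0.01, and a gene as measured where 1 of its probes was detected on both arrays of at least 1 group. The arrays detected 15479 and 15534 probes in KLF3 knockdown cells and 16182 and 15934 in control cells. The correlation across genes was 0.995 between the KLF3 knockdown arrays and 0.997 between the control arrays, against 0.971 to 0.972 between groups. Neither of the 2 KLF3 probes was detected on any array, so the arrays hold no check of the depletion. Of 14 erythroid and K562 markers on the array all 14 were detected on every array. Their summed signal was 93000 to 93800 in KLF3 knockdown cells and 54300 to 55000 in control cells. Summed signals add linear values, so the brightest genes weigh most and the sum does not show that all markers differed alike. Of these markers, ALAS2 differed by 1.18 in log2 and ABL1 by 0.02. T cell (5 genes), B cell (3), fibroblast (4) and endothelial (3) markers were detected on no array. The monocyte list had LYZ detected on every array, CSF1R on none and a summed signal of 769 to 956 in KLF3 knockdown cells and 264 to 299 in control cells. The epithelial list had EPCAM and KRT19 detected on every array, CDH1 on none and a summed signal of 2470 to 2610 in KLF3 knockdown cells and 2510 to 2570 in control cells. The part of these markers in the results below was not tested. In bulk RNA, fewer cells of a kind and less RNA per cell cannot be told apart.

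Most genes of these families were not measured in K562 cells. Of the 63 genes 21 were measured, and for 40 no probe was detected on any array. The 5 glutamate transporters of the SLC1 family were all among the undetected genes, as were 17 of 18 SLC6 genes, 4 of 5 SLC7 genes of the cationic type and 3 of 4 SLC36 genes, while 6 of 12 SLC38 genes were measured. All 3 SLC43 genes and both neutral exchangers of the SLC1 family were measured. SLC7A11, the light chain that imports cystine in exchange for glutamate, read 131 and 124 in raw intensity on the KLF3 knockdown arrays, against 138 and 130 on the control arrays, and was detected on none of them. The probes detected on no array, 59 in number, had raw intensities from 94.9 to 155 with a median of 122 in KLF3 knockdown cells and from 97.3 to 154 with a median of 129 in control cells. Over all probes the median was 137 in KLF3 knockdown cells and 139 in control cells. The undetected genes were SLC1A1, SLC1A2, SLC1A3, SLC1A6, SLC1A7, SLC3A1, SLC6A2, SLC6A3, SLC6A4, SLC6A5, SLC6A6, SLC6A7, SLC6A8, SLC6A11, SLC6A12, SLC6A13, SLC6A14, SLC6A15, SLC6A16, SLC6A17, SLC6A18, SLC6A19, SLC6A20, SLC7A2, SLC7A3, SLC7A4, SLC7A9, SLC7A10, SLC7A11, SLC7A13, SLC7A14, SLC36A2, SLC36A3, SLC36A4, SLC38A3, SLC38A4, SLC38A4-AS1, SLC38A8, SLC38A11 and SLC38A12. SLC38A7 and the antisense RNA SLC38A2-AS1 were detected on 1 array each and stayed untested. An undetected probe shows that a transcript was not well above background here, not that it was absent.

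**Figure D1:**
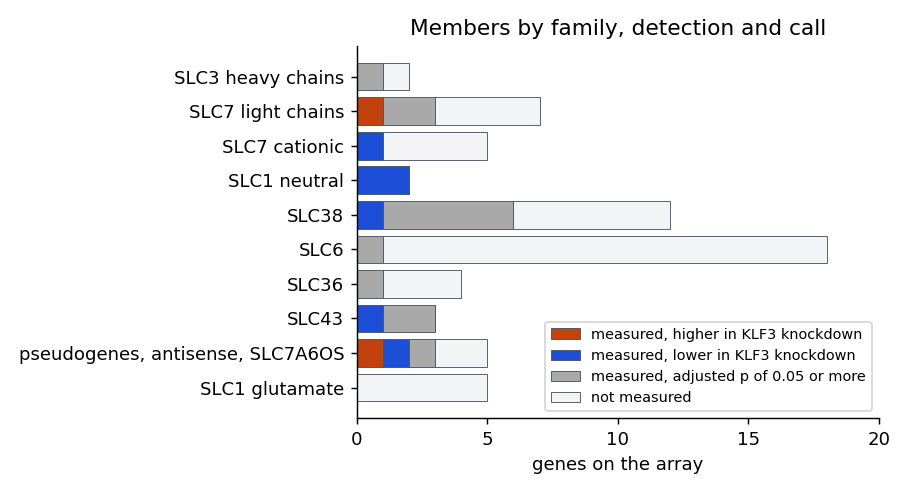
Number of member genes on the array (horizontal axis) in each family, split into measured genes called higher, called lower or not called in KLF3 knockdown cells, and genes not measured. The SLC6 family has 18 genes on the array and 1 measured, while all 3 SLC43 genes were measured.

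In KLF3 knockdown cells 6 of the 21 measured genes were lower and 2 were higher (limma, Benjamini-Hochberg adjusted p under 0.05 over 9530 genes). SLC1A4, SLC1A5, SLC7A1, SLC38A2, SLC43A3 and the pseudogene SLC6A10P were lower, by 1.24-fold to 1.50-fold, and SLC7A8 and SLC7A6OS were higher by 1.39-fold and 1.33-fold. Over all 9530 genes 40.0% were called, 19.4% higher and 20.7% lower, so the members' 38.1%, or 9.52% higher and 28.6% lower, is near the background. The median log2 difference of the 21 genes was -0.12, against -0.01 over all genes, and their median size of 0.21 lay beside 0.24 over all genes. With median scaling in place of quantile normalization 1 member was higher and 8 were lower, while the share of higher genes among all called genes was 37.4% in place of 48.3%. The 2 arrays of each group did not overlap for 17 of the 21 genes, beside 73.5% of all genes tested. Among the 18 measured genes that encode transporter proteins, 1 was higher and 5 were lower. With 2 arrays a group an exact permutation test cannot go below p = 0.333, so each call rests on the spread that limma pools over all genes.

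**Figure D2:**
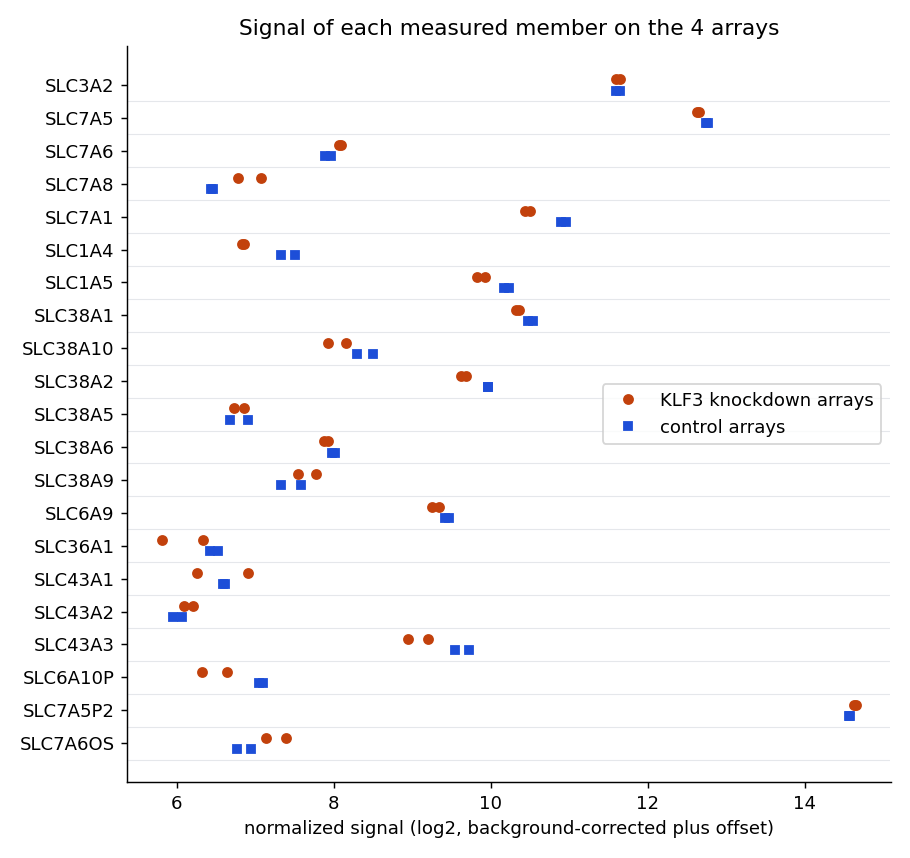
Normalized log2 signal (horizontal axis) of the 21 measured genes on each KLF3 knockdown array (circles) and each control array (squares). Points of the 2 groups are apart for 17 genes. Positions of different genes along the axis depend on their probes and are not to be compared.

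The neutral amino acid exchangers of the SLC1 family were both lower in KLF3 knockdown cells. SLC1A4 on chromosome 2, which exchanges alanine, serine and cysteine, read 6.83 and 6.85 on the KLF3 knockdown arrays, against 7.50 and 7.33 on the control arrays. Both knockdown arrays were below both control arrays. The log2 difference was -0.57 (SE 0.09, limma adjusted p = 0.00513), or 1.49-fold lower. It was -0.32 both without background correction and in the authors' processed table, and was called in each. SLC1A5 on chromosome 19, the glutamine transporter of proliferating cells, read 9.82 and 9.93 in KLF3 knockdown cells, against 10.17 and 10.23 in control cells. The groups were again apart, and the gene was 1.25-fold lower (log2 difference -0.32, SE 0.09, limma adjusted p = 0.0279).

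SLC7A1 on chromosome 13, the main carrier of arginine and lysine into many cell types, was lower as well. Its signals were 10.50 and 10.44 on the KLF3 knockdown arrays, against 10.96 and 10.89 on the control arrays. Replicates lay close together and the groups did not overlap, with a log2 difference of -0.45 (SE 0.08, limma adjusted p = 0.00813), or 1.37-fold lower. The other 4 cationic SLC7 genes on the array were not measured.

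Within the SLC38 family 1 of 6 measured genes was called, beside 40.0% of all genes tested. SLC38A2 on chromosome 12, a sodium-coupled carrier of small neutral amino acids whose transcript is induced when amino acids run short, read 9.62 and 9.68 in KLF3 knockdown cells, against 9.96 and 9.96 in control cells. The log2 difference was -0.31 (SE 0.08, limma adjusted p = 0.0257), or 1.24-fold lower. SLC38A1, a related carrier of glutamine, read 10.32 and 10.36 in KLF3 knockdown cells, against 10.54 and 10.48 in control cells. Its groups were apart, but the difference of -0.17 (95% interval -0.36 to 0.03) did not pass (limma adjusted p = 0.144). A second SLC38A1 probe, ILMN_2266948, read 7.28 and 7.21 in KLF3 knockdown cells, against 6.79 and 7.06 in control cells. The probes of SLC38A1 thus leaned opposite ways, by -0.17 and 0.32, and neither passed. SLC38A10 read 7.92 and 8.16 in KLF3 knockdown cells, against 8.29 and 8.50 in control cells, and its difference of -0.35 just missed the threshold (95% interval -0.65 to -0.06, limma adjusted p = 0.0586). It passed under 6 of 11 alternatives, with adjusted p between 0.0109 and 0.276. SLC38A9, the lysosomal protein through which arginine is reported to mTORC1, read 7.77 and 7.55 in KLF3 knockdown cells, against 7.58 and 7.33 in control cells. The groups overlapped, and the difference was 0.21 (95% interval -0.09 to 0.50). SLC38A5, a carrier of glutamine and histidine, read 6.86 and 6.73 in KLF3 knockdown cells, against 6.68 and 6.91 in control cells, a difference of 0.00 (95% interval -0.26 to 0.26). SLC38A6 read 7.93 and 7.88 in KLF3 knockdown cells, against 7.98 and 8.01 in control cells, a difference of -0.09 (95% interval -0.28 to 0.10). SLC38A5 overlapped between the groups and SLC38A6 did not, and neither was called.

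The stretches around the start sites of the 4 lower transporter genes named above are shown because they were called lower and because 3 of them, picked out with this in view, hold the core of the element through which the amino acid response factor ATF4 acts with C/EBP partners. Sequences are from RefSeq on GRCh38.p14, 250 bases before to 50 bases after a start site, 300 bases each, on the gene's strand. Capitals mark TGATGNAA on either strand (TTNCATCA on the other) and CACCC on either strand (GGGTG on the other), the last being the core of Krüppel-like factor sites. The 2 motifs share no base in these windows. SLC1A4 and SLC1A5 have more than 1 start site in RefSeq, and the window shown is the one that holds TGATGNAA. The other windows of SLC1A4 and SLC1A5 hold no match to it. For SLC1A5 the window shown belongs to the start site furthest downstream of those listed.
SLC1A4, chr2:64989149-64989448, plus strand: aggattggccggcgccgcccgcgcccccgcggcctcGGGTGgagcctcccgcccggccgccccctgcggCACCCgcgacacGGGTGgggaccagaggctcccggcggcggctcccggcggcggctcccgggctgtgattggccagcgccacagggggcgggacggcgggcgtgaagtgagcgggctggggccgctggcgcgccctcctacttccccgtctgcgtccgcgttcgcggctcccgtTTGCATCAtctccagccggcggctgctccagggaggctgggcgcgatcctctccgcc
SLC1A5, chr19:46784765-46785064, minus strand: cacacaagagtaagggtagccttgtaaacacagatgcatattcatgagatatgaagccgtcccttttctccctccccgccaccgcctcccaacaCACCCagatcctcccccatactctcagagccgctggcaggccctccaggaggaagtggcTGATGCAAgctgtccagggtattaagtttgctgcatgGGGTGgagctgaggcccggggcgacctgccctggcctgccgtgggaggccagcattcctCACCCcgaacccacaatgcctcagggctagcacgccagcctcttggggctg
SLC7A1, chr13:29595639-29595938, minus strand: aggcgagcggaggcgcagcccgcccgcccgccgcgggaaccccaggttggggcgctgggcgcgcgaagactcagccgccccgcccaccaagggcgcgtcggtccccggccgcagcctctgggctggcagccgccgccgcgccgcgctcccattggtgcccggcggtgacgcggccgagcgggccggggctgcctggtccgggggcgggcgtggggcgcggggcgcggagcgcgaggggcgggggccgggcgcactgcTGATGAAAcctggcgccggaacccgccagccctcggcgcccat
SLC38A2, chr12:46372724-46373023, minus strand: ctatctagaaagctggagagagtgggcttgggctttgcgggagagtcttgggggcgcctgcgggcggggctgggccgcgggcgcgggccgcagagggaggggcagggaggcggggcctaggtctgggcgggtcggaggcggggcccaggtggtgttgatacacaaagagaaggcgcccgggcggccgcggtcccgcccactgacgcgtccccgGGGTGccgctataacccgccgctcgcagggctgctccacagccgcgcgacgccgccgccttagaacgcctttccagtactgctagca

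In the windows shown, the TGATGNAA match began 7 bases before that window's start site in SLC1A4 and 97 bases before it in SLC1A5. In SLC7A1 it began at base 8 of the transcript. The SLC38A2 window held none, and 1 match to CACCC. Of the 18 measured members with a window in the table, 5 held TGATGNAA in at least 1 window: SLC1A4, SLC1A5 and SLC7A1, which were lower, and SLC3A2 and SLC38A1, which were not called. By window it was 5 of 33 windows of the members, or 15.2%, against 1.95% of the windows of tested genes. Among 7841 tested genes with a window 202 held it, or 2.58%, and 3.62% of all 35116 windows held it. CACCC was held by 14 of the 18 members and by 69.6% of the tested genes, and 59.9% of all windows held it. GGGCGG, the core of SP factor sites (CCGCCC on the other strand), was held by 17 of 18 members, 77.5% of tested genes and 45.0% of all windows. In all, 9 motifs were searched on both strands, with the results on these genes known. The other 6 were CCNCNCCC, CCACGCCC, CCAAT, TGATGNAAT, ATTGCATCA and TTGCATCA, held by 14, 2, 8, 0, 0 and 2 of the 18 members. Counted by gene in the same way, 79.8%, 10.3%, 44.1%, 0.714%, 0.179% and 0.727% of the tested genes held them, beside 77.8%, 11.1% and 44.4% of the members for CCNCNCCC, CCACGCCC and CCAAT. By window they were held by 56.2%, 5.02%, 34.6%, 0.991%, 0.236% and 0.866% of all windows. TTGCATCA, TGATGNAAT and ATTGCATCA overlap TGATGNAA in letters, and CCNCNCCC overlaps CCACGCCC. A match is a string of letters, not a site shown to be bound, and a missing match concerns only this window. SLC43A3, SLC6A10P and SLC7A5P2 were matched to no window.

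Of the heteromeric transporters, 1 of 3 measured light chains was called and the 1 measured heavy chain was not, beside 40.0% of all genes tested. SLC3A2 on chromosome 11, the heavy chain of the surface antigen CD98, read 11.60 and 11.64 in KLF3 knockdown cells, against 11.64 and 11.60 in control cells. The groups overlapped fully, and the difference of 0.00 had a 95% interval of -0.19 to 0.20. A further SLC3A2 probe, ILMN_1679041, read 8.76 and 8.84 in KLF3 knockdown cells, against 9.06 and 9.13 in control cells. That probe was lower by a log2 difference of -0.29 in the fit over 15722 probes (SE 0.09, limma adjusted p = 0.0479), so the probes of SLC3A2 disagreed.

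Of its light chains, SLC7A5, the exchanger of large neutral amino acids such as leucine, read 12.63 and 12.65 in KLF3 knockdown cells, against 12.77 and 12.74 in control cells. The groups were apart by a small step that did not pass (log2 difference -0.12, 95% interval -0.31 to 0.07, limma adjusted p = 0.271). SLC7A6, which exchanges basic for neutral amino acids, read 8.06 and 8.09 in KLF3 knockdown cells, against 7.89 and 7.96 in control cells, and did not pass either (log2 difference 0.15, 95% interval -0.05 to 0.34). Its other probe, ILMN_2324561, differed by -0.05.

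SLC7A8 on chromosome 14, a light chain with a wide range of neutral substrates, was the only measured light chain that was called. Its signals were 6.78 and 7.07 in KLF3 knockdown cells, against 6.44 and 6.46 in control cells. Both knockdown arrays were above both control arrays, and the gene was 1.39-fold higher (log2 difference 0.47, SE 0.11, limma adjusted p = 0.0196). Without background correction the log2 difference was 0.23, and in the authors' processed table it was 0.22. The other 2 SLC7A8 probes were detected on no array.

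SLC6A9, the glycine transporter of red cell precursors and the only SLC6 gene with a protein product that was measured, read 9.34 and 9.25 in KLF3 knockdown cells, against 9.47 and 9.42 in control cells. The knockdown arrays were slightly lower and the groups were apart, but the difference of -0.15 did not pass (95% interval -0.36 to 0.05, limma adjusted p = 0.197). The interval allows a decrease to 0.782 of the control signal and an increase to 1.04 of it.

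The proton-coupled SLC36A1, which moves amino acids out of lysosomes, read 5.81 and 6.34 in KLF3 knockdown cells, against 6.53 and 6.42 in control cells. Its knockdown arrays lay far apart, and the difference of -0.40 did not pass (95% interval -0.81 to 0.02, limma adjusted p = 0.111). It passed under 2 of 11 alternatives, with a difference of -0.67 without knockdown replicate 2 (limma adjusted p = 0.00815) and of -0.48 with median scaling on all 4 arrays (limma adjusted p = 0.0498).

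Among SLC43 genes, SLC43A3 on chromosome 11 was lower. It moves purine nucleobases in place of amino acids. The probe used read 8.95 and 9.20 in KLF3 knockdown cells, against 9.72 and 9.54 in control cells. The groups were apart, with a log2 difference of -0.55 (SE 0.12, limma adjusted p = 0.0132), or 1.46-fold lower. Another detected SLC43A3 probe, ILMN_2330307, gave -0.23 and did not pass (limma adjusted p = 0.164 over probes). SLC43A1 and SLC43A2, facilitators for branched and other large neutral amino acids, differed by -0.02 (95% interval -0.50 to 0.46) and 0.14 (95% interval -0.08 to 0.36). The SLC43A2 arrays read 6.20 and 6.09 in KLF3 knockdown cells, against 5.95 and 6.06 in control cells. For SLC43A1 the knockdown arrays read 6.26 and 6.91, to either side of 6.59 and 6.62 in control cells, and without knockdown replicate 2 it was lower (log2 difference -0.36, limma adjusted p = 0.0396).

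The 3 measured names that stand for no transporter protein were on chromosome 16, where 55.9% of 458 tested genes were higher and 5.02% were lower. The light chain genes SLC7A5 and SLC7A6 lie on chromosome 16 as well. SLC7A6OS, the gene beside SLC7A6, whose yeast relative takes RNA polymerase II into the nucleus, read 7.39 and 7.14 in KLF3 knockdown cells, against 6.77 and 6.94 in control cells. It was 1.33-fold higher (log2 difference 0.41, SE 0.11, limma adjusted p = 0.0322), and did not pass with median scaling (log2 difference 0.32, limma adjusted p = 0.111). Without background correction the difference was 0.23, and in the authors' processed table it was 0.22. SLC6A10P, a near copy of the creatine transporter gene SLC6A8, read 6.64 and 6.32 in KLF3 knockdown cells, against 7.10 and 7.05 in control cells. It was lower by a log2 difference of -0.59 (SE 0.12, limma adjusted p = 0.0117), or -0.29 without background correction and -0.28 in the authors' processed table, while the SLC6A8 probe was detected on no array. Signals of near-identical copies cannot be assigned to 1 of them with certainty.

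The pseudogene SLC7A5P2, a pseudogene copy of SLC7A5 by name, had 3 probes that behaved differently. ILMN_2234515 read 14.65 and 14.63 in KLF3 knockdown cells, against 14.56 and 14.58 in control cells. The log2 difference of 0.07 did not pass (limma adjusted p = 0.498). That probe was far brighter than the others, and which transcript it reads could not be settled. ILMN_1671355 read 6.33 and 6.42 in KLF3 knockdown cells, against 5.32 and 5.32 in control cells, where it was detected on neither array. It was at least 1.82-fold higher. The bound is the mean of the detected group over the lowest detected signal of the other arrays, or over the probe's own signal there. The probe passed the detection filter only through the KLF3 knockdown arrays, where it was high, so its p-value is no support. ILMN_1788665 was detected on no array.

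**Figure D3:**
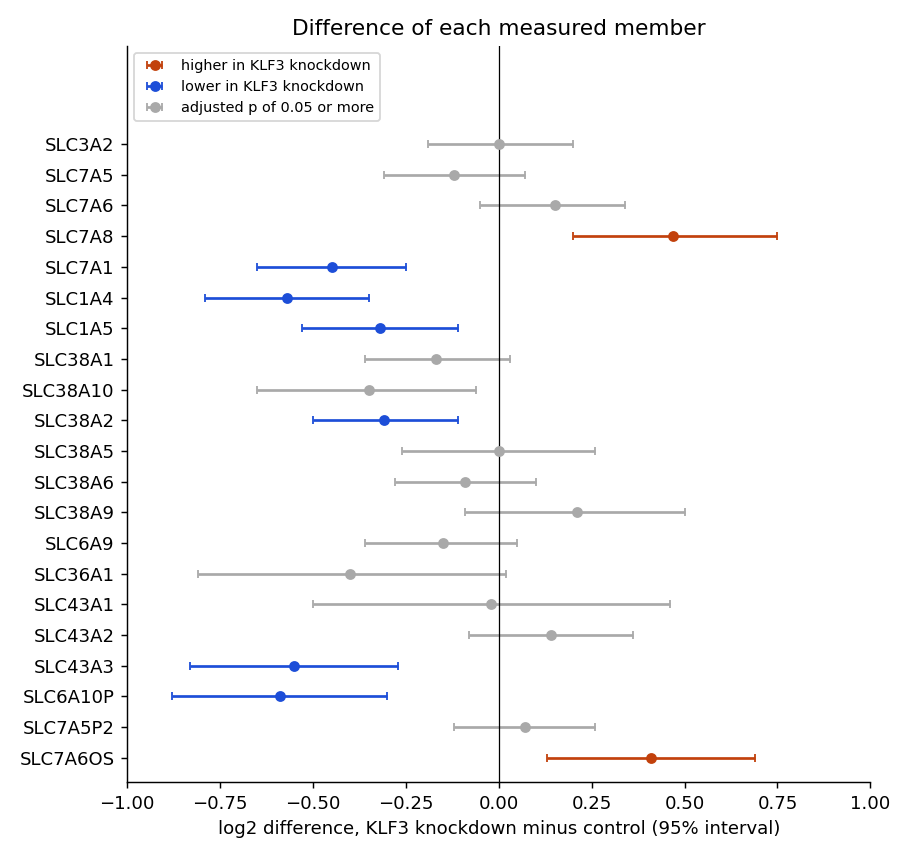
Log2 difference, KLF3 knockdown minus control (horizontal axis), of the 21 measured genes, with bars for the 95% interval of the limma fit. SLC6A10P, SLC1A4, SLC43A3, SLC7A1, SLC1A5 and SLC38A2 lie below 0 and SLC7A8 and SLC7A6OS above it, and the widest interval, -0.50 to 0.46, is that of SLC43A1.

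Counted by probe, 10 of the 26 kept member probes were called, or 38.5%, beside 34.5% of all kept probes. ILMN_1671355 of SLC7A5P2, kept only through the knockdown arrays, is among the 10. Of the 21 measured genes 5 had more than 1 kept probe: SLC3A2, SLC7A5P2, SLC7A6, SLC38A1 and SLC43A3. In none of the 5 were all kept probes called. Choosing the mean of a gene's kept probes gave differences of -0.14 for SLC3A2, 0.07 for SLC38A1 and -0.39 for SLC43A3. It gave 0.05 for SLC7A6 and 0.57 for SLC7A5P2, the last being called. That last value includes ILMN_1671355, so the call is no support.

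The calls differed in how well they stood up to leaving out an array. SLC1A4 passed under all 11 alternatives, with limma adjusted p between 0.000939 and 0.0427. SLC7A1 passed under 10 of 11 and missed without control replicate 1 (limma adjusted p = 0.0637). SLC43A3 and SLC6A10P passed under 9 of 11 each. SLC43A3 missed without control replicate 1 and without the filter on dim probes (0.086 and 0.0516), and SLC6A10P missed without control replicate 1 and without control replicate 2 (0.072 and 0.0612). SLC7A8 passed under 8, SLC1A5 and SLC38A2 under 7 and SLC7A6OS under 6. All 8 kept their sign under all 11. Without control replicate 1 the counts were 0 higher and 1 lower, and without control replicate 2 they were 0 higher and 3 lower. Without knockdown replicate 1 they were 1 higher and 4 lower, and without knockdown replicate 2 they were 2 higher and 9 lower.

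**Figure D4:**
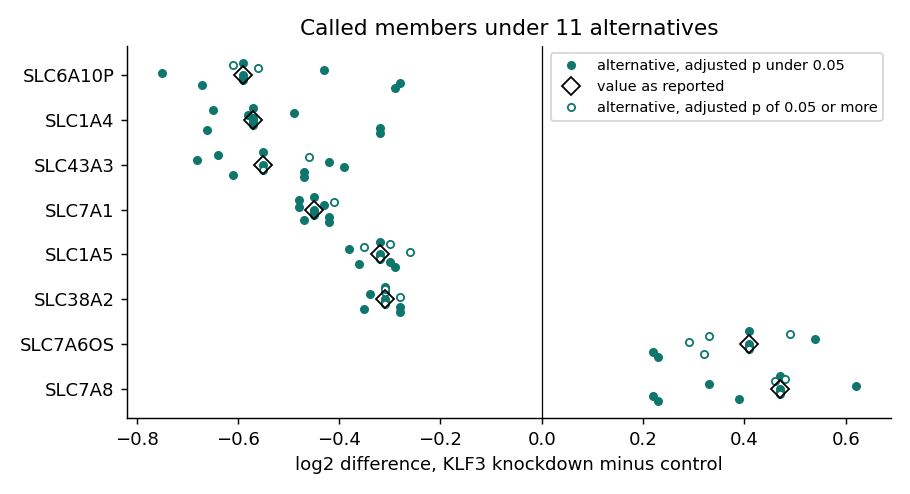
Log2 difference, KLF3 knockdown minus control (horizontal axis), of the 8 called genes as reported (diamonds) and under 11 alternatives (filled circles for an adjusted p under 0.05, open circles for 0.05 or more). All points keep the side of 0 of the value as reported.

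The genes around these transporters were read from 4 related lists. The response to amino acid shortage runs through the kinase EIF2AK4 and the transcription factor ATF4, whose known targets include several transporters above. Of 28 tested genes of that list 9 were higher and 6 were lower, or 32.1% and 21.4% beside 19.4% and 20.7% of all genes, with a median log2 difference of 0.12. NUPR1, a stress-induced nuclear protein gene, read 7.17 and 7.28 in KLF3 knockdown cells, against 5.93 and 5.86 in control cells, and was 2.52-fold higher (limma adjusted p = 0.000261). STC2, encoding the secreted protein stanniocalcin, read 7.01 and 7.06 in KLF3 knockdown cells, against 8.10 and 8.18 in control cells, and was 2.15-fold lower (limma adjusted p = 0.000439). PSPH, the last enzyme of serine synthesis, was 1.85-fold higher and AARS1, the alanyl-tRNA synthetase gene, 1.60-fold higher (limma adjusted p = 0.000796 and 0.00296). NUPR1 and AARS1 lie on chromosome 16. ATF4, named after its value was seen, read 13.11 and 13.12 in KLF3 knockdown cells, against 13.53 and 13.43 in control cells. It was 1.29-fold lower (limma adjusted p = 0.0173). Also higher in this list were ASNS, PHGDH, MTHFD2, EIF2AK4, CTH and XPOT, and also lower were ATF5, DDIT3, TRIB3 and CHAC1. Any part of ATF4 in the transporter values was not tested.

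Amino acids signal to the mTORC1 kinase through Rag GTPases on lysosomes. Of 32 tested genes of that list 5 were higher and 7 lower, 15.6% and 21.9%, with a median of -0.02. KPTN, counted among the 7, read 5.30 and 5.28 on the KLF3 knockdown arrays, against 5.59 and 5.57 on the control arrays. It was detected on neither knockdown array and passed the detection filter only through the control arrays, so its call is no support. RRAGD, a Rag GTPase gene, read 8.85 and 8.59 in KLF3 knockdown cells, against 9.71 and 9.72 in control cells, and was 1.99-fold lower (limma adjusted p = 0.00141). NPRL3, a subunit of the complex that restrains the Rag GTPases and a chromosome 16 gene, was 1.94-fold higher (limma adjusted p = 0.000989). SESN1, a sestrin gene, was 1.82-fold higher and RHEB, the GTPase that switches mTORC1 on, 1.34-fold higher (limma adjusted p = 0.00147 and 0.0112). MLST8 and WDR24, the other higher genes, lie on chromosome 16 as NPRL3 does, where 55.9% of tested genes were higher. SESN1 and RHEB lie on chromosomes 6 and 7.

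For the use of cystine and glutathione, 5 of 18 tested genes were higher and 3 lower, 27.8% and 16.7%, with a median of 0.07. CHAC2, which degrades glutathione, read 6.47 and 6.70 in KLF3 knockdown cells, against 5.84 and 5.71 in control cells, and was 1.75-fold higher (limma adjusted p = 0.00269). MGST1, a microsomal glutathione transferase gene, was 1.50-fold higher, GLRX, a glutaredoxin gene, 1.41-fold higher and OPLAH, which opens the ring of oxoproline, 1.47-fold lower, with limma adjusted p between 0.00439 and 0.0069.

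Carriers of amino acids outside the 7 families numbered 15 tested genes, of which 2 were higher and 1 lower, 13.3% and 6.67%, with a median of 0.03. SFXN1, the serine carrier of mitochondria, read 9.72 and 9.37 in KLF3 knockdown cells, against 8.88 and 9.00 in control cells, and was 1.52-fold higher (limma adjusted p = 0.0137). SFXN2 was 1.27-fold higher (limma adjusted p = 0.0269). SLC17A7, the vesicular glutamate transporter gene, was lower (limma adjusted p = 0.0434), with 1 of the 2 knockdown arrays not detecting it.

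**Figure D5:**
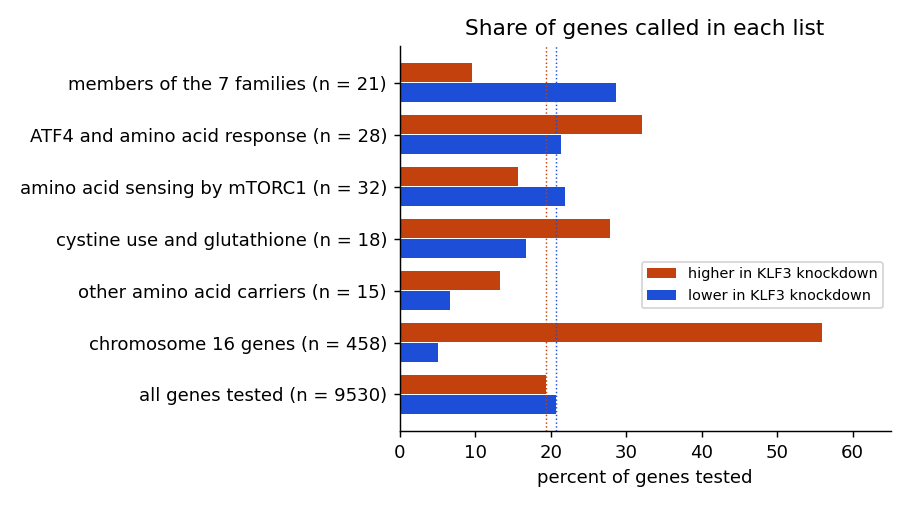
Percent of tested genes (horizontal axis) called higher or lower in KLF3 knockdown cells among the 21 measured members, the 4 related lists, chromosome 16 genes and all 9530 genes, whose shares are drawn as dotted lines. The members show 9.52% higher and 28.6% lower, beside 19.4% and 20.7% of all genes.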

How the data were processed

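Per the labels' protocols, Trizol was used for total RNA, and biotin was introduced with an Illumina amplification kit. The authors deposited mean bead intensity values, not normalized between arrays, and detection p-values, per the file headers. A further deposited table of processed intensity values had nearly equal sorted values on all arrays (within 0.303%), and the software behind it is not stated.

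Intensities were normalized with neqc (limma 3.58.1, R 4.3.3, offset 16, negative controls inferred from detection p-values). The detection filter (p under 0.01 on both arrays of either group) kept 15722 of 47322 probes. The platform annotation, updated by gene identifier, named 30112 probes with 1 symbol; 30073 matched GRCh38.p14 genes. The probe with the highest mean stood for each of 9530 genes. The fit was limma lmFit and eBayes without covariates, two-sided, Benjamini-Hochberg adjusted over all genes, threshold 0.05. Errors are limma standard errors and 95% intervals. Only 2 arrays a group limit the precision.

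On simulated data with 200 changed genes of 9530, the fit recovered 26.0% at a log2 size of 0.5 and 91.0% at 1. In the data 40.0% of genes were called, a far larger share than was changed in the simulation. The recovered shares are therefore not the power of this comparison. Named genes were all measured members, and up to 4 called genes with the smallest adjusted p of each related list. For the ATF4 list the other called genes were named as well, and for mTORC1 sensing KPTN, MLST8 and WDR24. Members, lists and motifs were chosen with earlier results of these data known. Alternatives covered background correction, normalization, the processed table, the filter, probe choice, an intensity trend, each array left out and a replicate block.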

Additional observations from a re-analysis of the deposited data

How the results depend on the processing

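The counts of members, 2 higher and 6 lower with 10 probes called, stayed within 1.5 times under the other alternatives but not under these. Median scaling gave 1 higher, and so did leaving out chromosome 16 members. Without the filter on dim probes, with 20045 genes tested, 0 members were higher, 3 lower and 2 probes called, and all genes gave 1189 higher and 1209 lower in place of 1845 and 1971. Leaving out 1 array gave 0 to 2 members higher, 1 to 9 lower, 1 to 9 probes called, 901 to 1599 of all genes higher and 883 to 1811 lower. The cause of these changes was not tested.

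For the ATF4 list, leaving out 1 array gave 5 to 8 higher and 3 to 7 lower. For mTORC1 sensing, median scaling gave 3 higher, no filter 3 higher and 2 lower, and leaving out 1 array 2 to 5 higher and 2 to 5 lower. For cystine and glutathione, no background correction, the authors' processed table and an intensity trend gave 5 lower each, no filter 1 lower, and leaving out 1 array 2 to 5 higher and 1 to 3 lower. For other carriers, median scaling gave 1 higher and 3 lower, no filter 0 and 0, an intensity trend 0 lower, the replicate block 2 lower, and leaving out 1 array 0 to 2 higher and 0 to 2 lower.

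Signs turned only for genes that were not called. SLC3A2 went to -0.02 with median scaling, without knockdown replicate 2 and without control replicate 2, and to -0.14 with the mean of probes. SLC38A1 went to 0.07 with the mean of probes and SLC43A1 to 0.30 without knockdown replicate 1. Leaving out 1 array gave -0.02 to 0.03 for SLC3A2, -0.36 to 0.30 for SLC43A1 and -0.12 to 0.12 for SLC38A5, which was 0.06 without knockdown replicate 2. Of 231 values of members under alternatives, 192 kept sign and side of the threshold, 21 lost a call and 10 gained one.

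Equally numbered arrays of the 2 groups share only a number: their deviations correlated at -0.01 over genes. With the number as a replicate block 3554 genes were called in place of 3816, with 2 members higher and 7 lower and 7 probes called. Arrays limit the precision through their number, and dim probes are held to bounds.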
